A study of Mus musculus and synthetic construct with 32 samples.

Results

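RNA Bind-N-Seq measured which sequences around N6-methyladenosine (m6A) were retained by the YTH domain of human YTHDC2. The experiment held 8 of the 32 libraries of the series, chosen by their labels: 4 from the YTH domain and 4 from beads alone. The other libraries are RNA of mouse testis and ovary, some from Ythdc2 knockouts and their controls and some from m6A immunoprecipitation and its input in testis of wild types or heterozygotes. In every Bind-N-Seq library the RNA was a synthetic 21 nt single strand with m6A in the centre and 10 random bases on either side. In the YTH group the domain carried a 6xHis-SUMO tag and sat on Ni-NTA agarose, and in the control group the same agarose had no protein. The folds thus compare the tagged domain with bare agarose, and retention by the tag alone was not tested. The isolated domain was used rather than the whole protein, and no pool without m6A is among these labels, so the comparison is between sequences around m6A and not between methylated and unmethylated RNA.

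The YTH domain is a fold that holds the methylated base of m6A in a pocket of aromatic residues, and the readers of the YTH family bind m6A in mRNA and pre-mRNA through it. YTHDC2 is the member that also has an RNA helicase, and it is needed in germ cells for meiosis. In mammalian mRNA the METTL3 and METTL14 writer makes m6A mainly within the consensus DRACH, in which D is A, G or U, R is A or G, the A is the methylated base and H is A, C or U.

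The values describe all sequences of 9 bases with A in the middle, called 9-mers here. Positions are counted from that A, from -4 to -1 before it and from +1 to +4 after it, and T stands for U as in the deposited table. For each 9-mer the authors' deposited table gives a fold, the ratio of the YTH domain to the bead control, and an unadjusted p-value. The p-values took 9 distinct values, and all 9 are values that an exact two-sided rank-sum test of 4 libraries against 4 can give. The smallest, 0.0286, is what such an exact test returns when the 4 libraries of a group lie entirely above or below the 4 of the other. Values of single libraries were not used, so no SD over libraries accompanies the folds, and the depth behind each fold is unknown. Whether 9-mers were counted only at the centre of the 21 nt RNA or at every A is not given in the sources used here. A molecule may therefore have entered several 9-mers, and 9-mers are described here and not treated as replicates. If every A was counted, the A in the middle of a 9-mer need not be the m6A. With that limit, the middle A is called the m6A below.

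A small part of the 9-mers had folds far above 1, and the larger part had folds below 1. How the fold was scaled is not given in the sources used here. A fold below 1 is therefore low relative to other 9-mers and need not mean depletion, and the split into higher and lower depends on where 1 was set. The median fold over all 9-mers was 0.774, with quartiles of 0.626 and 1.10, and 19865 9-mers (30.3%) lay above 1. At the smallest exact p the Benjamini-Hochberg adjusted value was 0.0443, and 42271 9-mers passed the threshold of 0.05, which is 64.5% of those tested. Of these, 11307 (17.3% of all) were higher with the domain and 30964 (47.2%) were lower. The next possible p, 0.0571 in an exact test, had an adjusted value of 0.0791, so a call here means only that the p reached its minimum. Among the higher 9-mers the median fold was 1.74 and 3967 exceeded 2. Among the lower ones the median fold was 0.622, the lowest was 0.342 and 1932 fell below 0.5. Folds above 1 therefore had the longer tail, with the top 1% of 9-mers above 4.65 and the bottom 1% below 0.468.

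The sequences at both ends of the range are shown because they carry the contrast between the most and the least enriched RNA. The 10 called 9-mers with the highest folds in the authors' deposited table follow, with the 5 bases from -2 to +2 in capitals.

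highest 1: cgTCATGca
highest 2: tgTTACAca
highest 3: acGTAGCgc
highest 4: cgTCATGcc
highest 5: cgTCATGcg
highest 6: cgTCATGct
highest 7: gcGTAGCgc
highest 8: gtAAACAca
highest 9: tgTTACAaa
highest 10: ccGTAGCgc

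In the authors' deposited table the first of these had a fold of 135 and the second a fold of 124. The remaining 8 ran from 84.6 for the third to 56.4 for the tenth in the authors' deposited table. All 10 had the smallest exact p of 0.0286. They fall into few kinds of sequence: 4 share cgTCATGc, 3 end in GTAGCgc, and the other 3 hold ACA from the central A onward.

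The 10 called 9-mers with the lowest folds follow in the same notation.

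lowest 1: ccCGATCtt
lowest 2: tcCGATCca
lowest 3: ccCGAAGgg
lowest 4: agTGATTtc
lowest 5: gtGCAATtc
lowest 6: ctCGACCga
lowest 7: ggCGACCcg
lowest 8: taAGATCtt
lowest 9: gtGCACTtc
lowest 10: gtGCAGTtc

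The folds of these 10 in the authors' deposited table ran only from 0.342 for the first to 0.388 for the tenth. All had G or C just before the central A, and 3 of them, gtGCAATtc, gtGCACTtc and gtGCAGTtc, differ only at +1. The flanks of a single base were near 1 in comparison. In the authors' deposited table aaaaAaaaa had a fold of 0.905 and ccccAcccc a fold of 1.00. In the same deposited table of the authors ggggAgggg stood at 0.882 and ttttAtttt at 0.726. None of these 4 was called, with exact p-values of 0.686, 0.886, 0.686 and 0.0571 in that order.

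The base just after the m6A separated the pool more than any other single position. Each base at a position is carried by 16384 9-mers. With C at +1 the median fold was 1.06, and 33.6% of these 9-mers were called higher and 23.2% lower, against 17.3% and 47.2% in the whole pool. T at +1 came next, with a median of 0.933 and 25.04% higher. Purines at +1 went the other way. With A the median was 0.646, with 5.04% higher and 69.9% lower, and with G it was 0.676, with 5.38% higher and 66.6% lower. The upper quartile of the A class was 0.767, below the lower quartile of 0.800 for C, so the ranges between quartiles do not overlap.

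The second base after the m6A had the next largest effect, and there A was favoured and T disfavoured. The median fold was 0.942 with A at +2, 0.786 with C, 0.775 with G and 0.665 with T. The share called higher ran from 28.7% for A to 7.10% for T. C and G at +2 were thus both close to the pool median, and their quartiles overlapped almost entirely (0.638 to 1.11 for C and 0.627 to 1.07 for G).

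Before the m6A the differences were smaller, and G at -1 stood lowest. At -1 the median fold was 0.853 with A, 0.814 with T, 0.749 with C and 0.711 with G, and only 9.17% of the 9-mers with G were called higher. At -2 the base with the highest median was A, at 0.858, and 23.4% of its 9-mers were called higher. C, G and T at -2 lay close together at 0.736, 0.769 and 0.739. At -3 the medians ran from 0.820 for A to 0.733 for T and at -4 from 0.811 for C to 0.732 for T. At +3 C was highest with 0.840 and G lowest with 0.712, while at +4 A was highest with 0.823 and T lowest with 0.727. The ratio of the highest to the lowest median was 1.64 at +1 and 1.42 at +2, against 1.20 at -1, 1.18 at +3, 1.17 at -2, 1.13 at +4, 1.12 at -3 and 1.11 at -4. By the range of mean log2 folds in place of medians, the 4 positions nearest the m6A kept this order, with 0.73 at +1, 0.54 at +2, 0.28 at -1 and 0.24 at -2. The outer positions did not, since +4 (0.22) then stood above -3 (0.17) and +3 (0.16).

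**Figure D1:**
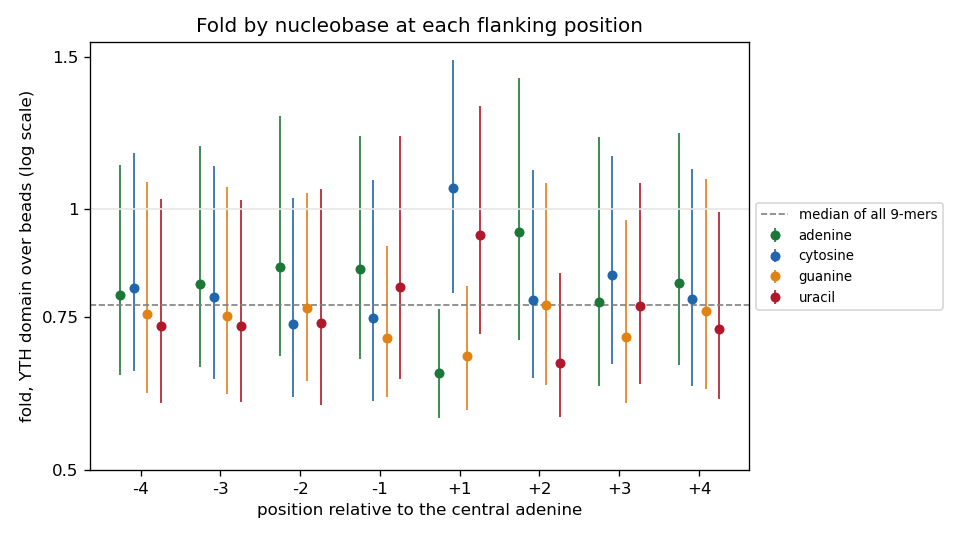
Median fold of the YTH domain over beads (vertical axis, log scale) for the 9-mers with each nucleobase at each flanking position (horizontal axis); bars run between the quartiles over 9-mers, uracil is T in the text, and the dashed line is the median of all 9-mers, 0.774. At +1 the medians of cytosine (1.06) and uracil (0.933) stand apart from those of guanine (0.676) and adenine (0.646), and the 4 medians lie closest together at -4.

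Single positions did not account for the whole pattern. Since all combinations of bases are present once, the variance of the log2 folds over the 9-mers can be split exactly into parts due to single positions, to pairs, and to larger combinations. The 8 single positions held 35.7% of the variance and the 28 pairs a further 23.4%, which leaves 40.9% to combinations of more than 2 positions and to measurement error. Triplets held 18.03% and combinations of 4 positions 11.7%. Position +1 alone held 19.9%, +2 held 7.47%, -1 held 2.65%, -2 held 1.92%, and +4, +3, -3 and -4 held 1.38%, 0.947%, 0.772% and 0.671%.

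Seen by side, the bases after the m6A carried most of what was described. The 4 bases after it, with all their combinations, held 55.2% of the variance, and the 4 bases before it held 9.98%. The remaining 34.9% belonged to combinations that span the m6A and to measurement error. These are shares of the spread among 9-mers and not of binding energy.

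Among pairs of positions, +1 with +2 was the largest component at 5.35% of the variance. It was followed by -1 with +1 at 2.82%, +1 with +3 at 2.59%, +2 with +3 at 2.10%, +1 with +4 at 1.53%, +3 with +4 at 1.51% and +2 with +4 at 1.27%. No other pair reached 1%. The 7 pairs of neighbours, in which the 2 positions beside the m6A count as neighbours, held 13.3% of the variance, with a median of 1.51% a pair. The other 21 pairs held 10.1%, with a median of 0.298%. Pairing lay mostly on the side after the m6A. The 6 pairs there held 14.3%, against 2.23% for the 6 pairs before it and 6.87% for the 16 pairs across it. Closeness alone did not set the share. The neighbours before the m6A held 0.989% (-2 with -1), 0.321% (-3 with -2) and 0.245% (-4 with -3), less than +1 with +3 or +1 with +4.

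**Figure D2:**
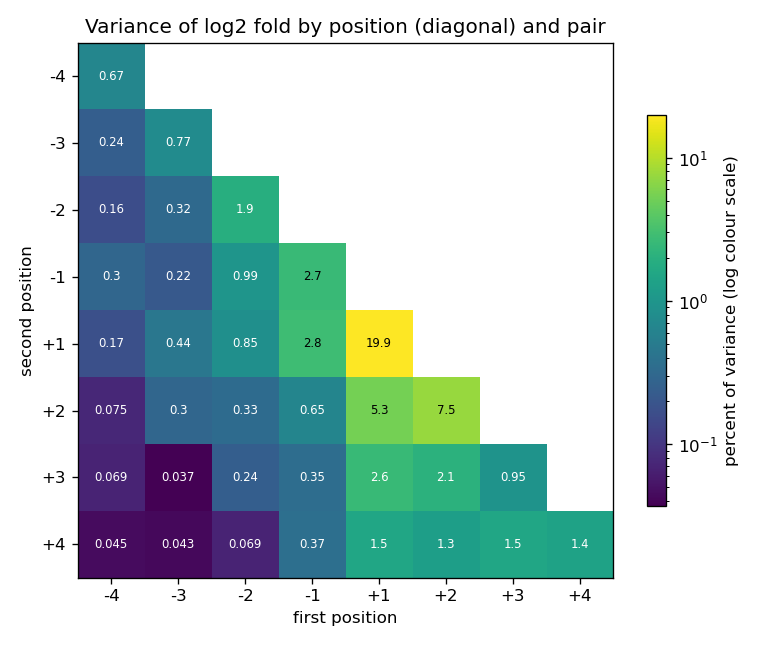
Percent of the variance of log2 folds over 9-mers held by each position (diagonal) and by each pair of positions beyond its single positions (below the diagonal), with a log colour scale. Position +1 holds the largest share (19.9%), the pair of +1 and +2 holds the largest share of any pair (5.35%), and each pair of -4 or -3 with +3 or +4 holds under 0.1%.

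A pair effect is the mean log2 fold of the 4096 9-mers with both bases, less what the 2 single positions add up to. Among the pair effects of all 28 pairs, 50 were larger than 0.1 in size, 28 of them above 0 and 22 below, and 31 of the 50 involved +1. Both positions lay after the m6A in 38 and before it in 4. The most negative was G at -1 with C at +1, the arrangement GAC of the classical consensus. Its pair effect was -0.29 on the log2 scale, with a mean log2 fold of -0.25 against 0.04 from the single positions. Its median fold was 0.780 and 11.8% of its 9-mers were called higher. With C kept at +1, the median was 1.20 with A at -1, 1.19 with T and 1.11 with C. With C at +1 the median was therefore above 1 after A, C and T, and close to the pool median of 0.774 after G. Some cores of the latter kind had medians above 1, among them AGACC with 1.16 and GGACC with 1.09.

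The pair just after the m6A showed the same kind of dependence. C at +1 followed by G at +2 had a pair effect of -0.25 on the log2 scale, and C followed by A one of 0.18. The median fold was 1.43 for ACA, the highest of the 16 triplets that start at the m6A, and 56.7% of its 9-mers were called higher. ATA followed with 1.29 and 47.2%, ACC with 1.18 and 40.0%, and ATG with 1.04 and 33.9%. ACG and ACT were below 1, at 0.915 and 0.865. The lowest was AGT with 0.585, where 12 of 4096 9-mers were called higher and 3657 lower. The sequence after the m6A thus had its highest medians where C or T at +1 was followed by A.

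Pair effects above 0 also occurred among sequences of low fold, where 2 unfavourable bases together lowered the fold less than their sum. The largest of all, A at +1 with T at +2, was 0.25 on the log2 scale, yet the mean log2 fold of these 9-mers was -0.53, against -0.79 from the single positions. G at -1 with A at +1 and G at -1 with G at +1 were of the same kind, with pair effects of 0.19 and 0.18 and medians of 0.653 and 0.678. G at +1 with C at +2, at 0.19, had a median of 0.752. The others among the 10 largest were C at +1 with A at +3 (0.23 on the log2 scale), G at +2 with C at +3 (0.22), T at +1 with G at +2 (0.21), G at +3 with C at +4 (0.15) and T at +1 with A at +2 (0.15). C at +1 with A at +3 had a median of 1.30 and 50.2% called higher. T at +1 with A at +2 was close to it, at 1.29 and 47.2%. C at +1 with A at +2 was higher, at 1.43 and 56.7%.

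The other pairs among the 10 smallest lay after the m6A. G at +1 with A at +2 had a pair effect of -0.20, C at +1 with C at +3 one of -0.18, and T at +1 with T or C at +2 ones of -0.18 and -0.18 on the log2 scale. A at +3 with C at +4 stood at -0.18, and A at +3 stood at -0.17 with G at +1 and at -0.16 with A at +1 or G at +2. These are departures from the sum of the single positions. Among all 9-mers with C at +1 the median was 1.06, and with A also at +3 it was 1.30. Among all with A at +1 the median was 0.646 and 5.04% were called higher. With A at both +1 and +3 these were 0.633 and 1.10%. A at +3 thus went with a higher median beside C at +1 and a slightly lower one beside A at +1.

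Base composition was compared next, beginning with G. The 6561 9-mers with no G in the 8 flanking positions had a median fold of 1.04, with 31.3% called higher and 21.9% lower. With 1 G the median was 0.827, with 2 it was 0.755, with 3 it was 0.720 and with 4 it was 0.697. Beyond that it did not fall further, with 0.691 at 5, 0.706 at 6 and 0.738 at 7, the last over 24 9-mers. By medians the first G thus made the largest step, and later steps were smaller. From 1 G to 4 the share called higher went on falling, from 21.3% to 9.54%, and the share called lower rose from 40.0% to 60.0%.

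C content moved in the opposite direction and rose almost throughout. Medians ran through 0.701, 0.732, 0.774, 0.824, 0.881, 0.969 and 1.08 for 0 to 6 C, and the 24 9-mers with 7 C had 1.30. For A the median was 0.693 without A, 0.821 with 3 and 0.808 with 4, and it stood at 0.843 with 6 and at 0.938 over the 24 9-mers with 7. T content fell from 0.847 without T to 0.743 with 4 and then stayed near that value. For G plus C content the medians lay between 0.759 and 0.905 for all counts from 0 to 8, with the highest at 0 and the lowest at 5. The share called lower was 14.8% with none, 50.3% with 5 and 37.9% with 8, against 47.2% of all 9-mers. Counting A and C together, the median was 0.626 with neither and 1.15 when all 8 flanking bases were A or C, and the share called higher went from 7.03% to 40.6%.

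**Figure D3:**
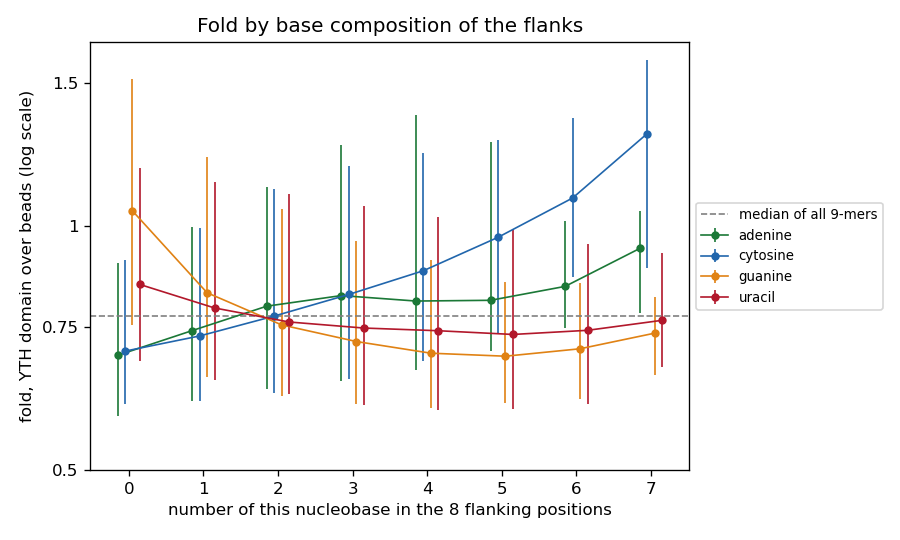
Median fold of the YTH domain over beads (vertical axis, log scale) by the number of each nucleobase in the 8 flanking positions (horizontal axis, 0 to 7, since 8 is a single 9-mer); bars run between the quartiles over 9-mers. The median for guanine is 1.04 with none and 0.697 with 4, and the median for cytosine is 0.701 with none and 1.30 with 7.

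The side mattered for composition too. C after the m6A took the median from 0.689 with none to 1.01 with 3 and 1.10 with 4, whereas C before it gave 0.790 with none and 0.801 with 3. A before the m6A took it from 0.699 with none to 0.908 with 3, whereas A after it gave 0.766 with none and 0.729 with 3. A flank of TTTT before the m6A, at 0.984, exceeded one of AAAA at 0.878, CCCC at 0.865 or GGGG at 0.741, although single T bases there were unfavourable at -4, -3 and -2.

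Grouped by the core of 5 bases from -2 to +2, the 6 cores with the highest mean log2 fold all had C or T at +1. First was ATACA, with a median fold of 2.26 (quartiles 1.77 and 3.19), and 91.8% of its 9-mers were called higher and 0 lower. Its extremes in the authors' deposited table were taATACAca with a fold of 11.4 and gtATACAct with 0.853. The second, ACACA, had a median of 2.21 with 82.0% called higher, and the third, AAACA, one of 2.01 with 84.4%. Then came ATACC with a median of 2.04 and 80.1%, TTACA with 1.82 and 79.7%, and ATATA with 1.91 and 78.9%. Of these 6 only AAACA is a DRACH core.

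The 20 highest cores shared more than their C or T at +1. A stood at +2 in 15 of them and at -2 in 8, C was at +1 in 13 and T in 7, G was at -1 in 0, and 4 were DRACH cores. The 20 lowest cores had a purine at +1 in 19 and T at +2 in 13. The lowest of all was TCAGT with a median of 0.526, where 99.6% of the 9-mers were called lower and 0 higher, with folds from 0.426 to 0.724. Next to it were CTAGT at 0.541, GCAGT at 0.550, TCAAC at 0.548, TAAGT at 0.562 and TGAGT at 0.559. The folds of the lowest core, TCAGT, thus lay closer together than those of the highest, ATACA.

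The consensus of m6A in mRNA was not uniformly favoured. Over all 4608 9-mers with a DRACH core the median fold was 1.05, with 33.9% called higher and 24.5% lower, close to the 33.4% and 22.7% of the 11776 other 9-mers with C at +1, whose median was 1.06. The 18 DRACH cores were spread over most of the range, from rank 3 (AAACA) to rank 216 (TGACT) of all cores by mean log2 fold. A or G at -1 split them. With A the median was 1.34 and 51.5% were called higher, and with G it was 0.858 and 16.2%.

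The last base of the consensus made a second division. The median was 1.25 with A at +2 and 1.21 with C, but 0.790 with T. At -2 it was 1.21 with A, 1.01 with G and 0.952 with T. AAACC at 1.73, TAACA at 1.56, GAACA at 1.46, TAACC at 1.37 and GAACC at 1.36 followed AAACA. In the middle were AGACC at 1.16, AAACT at 1.15, GGACC at 1.09, AGACA at 1.05, TAACT at 1.00 and GGACA at 0.967. TGACA at 0.869, AGACT at 0.770, GAACT at 0.768 and TGACC at 0.747 lay lower.

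GGACT, written GGACU in RNA and the form most often cited for mRNA m6A, was among the lower DRACH cores. Its median fold was 0.690 (quartiles 0.625 and 0.785), below the pool median, with 4.30% of its 9-mers called higher and 75.8% lower. In the authors' deposited table its highest 9-mer was ccGGACTgt with a fold of 2.81 and its lowest ttGGACTct with 0.514. TGACT was the only DRACH core with a lower median, 0.641. Since every RNA carried m6A, these values rank sequences against each other and do not measure whether m6A in GGACU is bound. They describe the surroundings of m6A only if 9-mers were counted at the centre of the RNA.

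Bases further out also separated the 9-mers of the 6 highest cores. At +3 the highest median was with A and the lowest with C in all 6, for example 3.39 and 1.54 within ATACA. At +4 the highest median was with A in all but ATACC. Within ATACA it was 4.05 with A at +4 and 2.01 to 2.06 with the other bases, within ACACA it was 4.88 against 1.76 to 1.91, and within AAACA 5.36 against 1.70 to 1.88. The exception, ATACC, had 3.28 with C at +4 and 1.75 with A. Over the 6 highest cores together, AA after the core gave a median of 7.29 and CA one of 6.39, whereas CG gave 1.38 and CT 1.18. C at +3 was thus of high or low fold depending on the base that came after it. The bases before the core counted in some cores more than in others. At -3 the median within ATACC was 3.86 with G and 1.56 to 1.73 with the other bases, a wider range than at +3 or +4 in that core. Within ACACA it was 3.25 with C and 1.47 with G at -3, whereas within ATACA it was 2.50 with C and 2.06 with T.

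The 4 bases after the m6A were therefore also ranked as units. Of all such tetramers 74 had a median fold above 1, against 7 of the same number before the m6A. CAAA was highest with a median of 4.40, and 97.7% of its 9-mers were called higher and 0 lower. CACA had 3.35, TAGC 2.83, GCGC 2.25 and TAAA 2.12. Before the m6A the highest were TCTT with 1.20 and ACAA with 1.14. The lowest tetramers after the m6A were AGAT with 0.522 and GGAT with 0.533, and before it TGTG with 0.512 and GTGC with 0.527.

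With CAAA or CACA after the m6A, the bases before it still graded the fold. With CAAA the median was 6.14 with A at -1, 5.26 with T, 4.51 with C and 2.43 with G. With CACA it was 5.87, 4.27, 3.05 and 1.55 in the same order. A at -2 raised it to 7.95 with CAAA and 6.84 with CACA, against 3.39 and 2.11 with G at -2. G at -1 thus lowered the fold even in the best surroundings, and yet 61 of the 64 9-mers with G at -1 before CAAA were called higher.

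The very highest folds included sequences outside the general pattern. Among the 3969 9-mers with a fold above 2, C was at +1 in 51.9%, T in 34.3%, G in 7.73% and A in 6.10%. Above 8, all 9-mers stood at the smallest exact p of 0.0286, and C was at +1 in 163, T in 55, G in 25 and A in 14. Above 32 there were 24, with C at +1 in 10, T in 6, G in 6 and A in 2. G at +1 was thus rare among 9-mers called higher and more common among the few with extreme folds. Those extreme folds came from a single sequence, since all 15 9-mers with G at +1 and a fold above 16 ended in GTAGCGC. DRACH cores made up 7.03% of all 9-mers, 13.6% of those above 2, 10.5% of those above 8 and 1 of the 24 above 32.

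Many of the extreme 9-mers shared runs of 7 bases. They are shown because their median folds lay far above those of their cores, with n for any base and the run in capitals. These runs were picked after their folds were seen, so their values are a description. That choice itself favours a run over the rest of its core, and whether the fold depends on the whole run was not tested.

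run 1: nnGTAGCGC
run 2: CGTCATGnn
run 3: nGTCATGCn
run 4: nnCTACCTC
run 5: GACCATGnn
run 6: nnTTACACA
run 7: nnAAACACA
run 8: nnATACAAA

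The first run has G at +1, and its 16 9-mers had a median fold of 27.0 and a range from 3.95 to 84.6. The other 240 9-mers with the same core, GTAGC, had a median of 0.877 and a highest fold of 10.3. By medians the pattern was alike for nGTCATGCn, with 16.4 against 0.982 for the rest of the TCATG core, and for nnCTACCTC, with 18.6 against 0.952 for the rest of CTACC. GACCATGnn had 11.4 against 1.25 for the rest of CCATG. In these cores, unlike GTAGC, the highest fold of the rest exceeded the median of the run. It was 26.9 in TCATG, 33.5 in CTACC and 12.9 in CCATG. CGTCATGnn, which shares 4 9-mers with nGTCATGCn, had a median of 15.1. The other 9-mers of CGTCATGnn lie within the rest of TCATG. The 76 different 9-mers that hold one of the first 5 runs made up 42 of the 78 9-mers above 16 and 17 of the 24 above 32.

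The last 3 runs contain ACA or CAAA after the m6A and fit the core ranking in kind. nnAAACACA had a median of 10.6 with all folds between 6.39 and 60.8, nnATACAAA had 8.73 with a range from 4.56 to 10.9, and nnTTACACA had 8.19 with a range from 2.15 to 124. All 16 9-mers of each were called higher. The folds within nnATACAAA varied least, whereas in nnTTACACA the 2 outermost bases alone separated the lowest fold from the second highest of the whole table.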

How the data were processed

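RNA Bind-N-Seq of 4 YTH domain and 4 bead libraries was deposited by the authors as 1 table of 9-mers. Per the file headers each 9-mer has a linear fold ratio of IP over control, taken as YTH domain over beads from the labels, and a p-value that is not adjusted. Per the submitters' processing notes adapters were removed with cutadapt. How 9-mers were counted, scaled and tested, and the cutadapt version, is not given in the sources used here. The table has 8 columns of values per library whose names match no label, and these were not used. The models on libraries that had been planned, with an exact permutation test over libraries, were therefore replaced by the authors' fold and p-value.

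All 9-mers were used, with no filter on low values and no pseudocount. P-values were adjusted over all of them by Benjamini-Hochberg, and 9-mers below 0.05 were called higher or lower by whether the fold was above or below 1. The p-values measure only the spread between these libraries, which may be technical. Groups of 9-mers are described by medians, quartiles and counts of calls. Variance was split over the full grid of log2 folds (Python 3.11.15, numpy 2.4.6, pandas 2.3.3), and the split was tested on simulated data. Single positions and their pairs were all examined. The 10 highest and 10 lowest called 9-mers, the 18 DRACH cores, the 6 highest and 6 lowest cores by mean log2 fold, and the 10 largest and 10 smallest of all pair effects are named. The members and lists were chosen with earlier results of these data known, and the tetramers, the 7-base runs and the outer bases of the best cores after the folds were seen.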

Additional observations from a re-analysis of the deposited data

How the results depend on the processing

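No paired analysis was possible because the columns used carry no library numbers, and for the same reason no library could be left out and no other normalization, count test or filter on low values was run. Calls are limited by the p-value's minimum, and the depth behind a fold is unknown. Without 9-mers in which a flank was all one base, 41302 were called (11041 higher, 30261 lower). At an adjusted p below 0.1 the count was 47323 (12703 higher, 34620 lower). With direction taken from the median fold, 13530 of the called lay above it and 28741 below. On ranks of the fold single positions held 45.1% of the variance and positions with pairs 66.1%, and +1 alone 25.4%; without the 1% highest folds the first 2 values were 40.1% and 63.4%. The share called higher was 38.0% for RRACH and 4.30% for GGACU, against 33.9% for DRACH. Of 96 recomputed deviations of a base at a position from the mean of all 9-mers (32 deviations under 3 alternatives), 1 changed sign, G at +2, from -0.03 to 0.0016 on the log2 scale with medians in place of means, and the others moved by less than 0.1. Many of the deviations were themselves smaller than 0.1, so a shift below that can still be large beside them. With medians A at +3 went from 0.064 to 0.014 and T at +3 from -0.037 to -0.0025, while C at +3 rose from 0.066 to 0.12. The 20 named pair effects kept their sign when the 1% highest folds were held at their lower limit and without flanks of one base. Without such flanks the 28 medians for 0 to 6 of each base moved by less than 0.1 on the log2 scale, and 7 of a base could not be recomputed. The 6 highest cores by mean were also the 6 highest by median, and 5 of them remained without the 1% highest folds. Those leaving out flanks of one base (for the calls, the base deviations, the pair effects and the medians by base content), the ranks for single positions together and with pairs, RRACH and GGACU had been planned, and the other alternatives, among them ranks for +1 alone, were chosen after seeing the data.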

Other observations

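The same 5 bases had different folds depending on which of their A bases stood in the middle of the 9-mer. ATACA had a median fold of 2.26 with letter 3 in the middle, 1.27 with letter 1 and 0.877 with letter 5. AAACA had 2.01 with letter 3 in the middle, and 0.787 with letter 1, 0.755 with letter 2 and 0.860 with letter 5. ATATA had 1.91 with letter 3, 1.56 with letter 1 and 0.883 with letter 5, and TTACA had 1.82 with letter 3 and 0.842 with letter 5. Among the 6 highest cores ACACA alone had its highest median away from letter 3, at 3.35 with letter 1 in the middle, against 2.21 with letter 3 and 1.04 with letter 5. ATACC, with 2.04 for letter 3 and 1.20 for letter 1, followed the others. TTACACA was higher on its earlier A as well, over 16 9-mers a register, with a median of 8.19 with letter 3 in the middle and 2.09 with letter 5. The 6 cores were picked for high folds with letter 3 in the middle, so that choice itself favoured letter 3 in these comparisons. TTACACA was also picked after its folds were seen.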
